A study of Homo sapiens with 32 samples.

Results

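The 9 genes described here encode the DNA-sensing arm of innate immunity and the kinase branch that leads from it to the transcription factor IRF3: CGAS, STING1, IFI16, TREX1, TBK1, IKBKE, TANK, TRAF3 and IRF3. They were taken by symbol from count tables of 62703 gene identifiers, and each symbol matched 1 identifier. The study measured poly(A) RNA of HEK293T, an established human embryonic kidney line that carries the SV40 large T antigen, after knockout of IGF2BP1, IGF2BP2 or IGF2BP3, RNA-binding proteins that are abundant in fetal tissue and in tumours. Its title names innate immune signalling as the process of interest. Whole-cell (total), nuclear and cytoplasmic RNA were sequenced in 32 libraries.

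All cells were untreated HEK293T. The control had been given CRISPR/Cas9 with a guide that matches no mammalian gene and had 4 libraries for each kind of RNA, 1 in each of batches 1 to 4. The IGF2BP1 knockout had 2 libraries for each kind, in batches 1 and 2, and the IGF2BP2 and IGF2BP3 knockouts had 2 each in batches 3 and 4. Cytoplasmic RNA of the IGF2BP3 knockout had 2 more libraries in batch 5, which held no control. Each knockout was made with plasmids that do not integrate, carrying GFP and 3 guides, and is represented by 1 clone grown from a sorted cell. A difference between a knockout and the control therefore cannot be told apart from a difference between clones, and the labels do not say whether the control is a clone or a pool. Nothing says that replicates were separate cultures, so p-values measure only the spread between these libraries.

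In this pathway the enzyme cGAS (CGAS) binds DNA in the cytosol and makes the messenger cGAMP, which activates the membrane adaptor STING (STING1). STING recruits the kinase TBK1, and to a lesser degree its relative IKKε (IKBKE), and these phosphorylate IRF3, which enters the nucleus and turns on interferon genes. IFI16 is a further DNA sensor, TREX1 is an exonuclease that removes stray DNA before it is sensed, TANK is a scaffold of the TBK1 and IKKε kinases, and TRAF3 is a ubiquitin ligase that links receptors to them. HEK293T cells are known for little or no cGAS and STING, which is why they are used as a host for reconstituting the pathway.

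Library depth ran from 13689067 to 26119480 reads assigned to genes. Of 13 genes that HEK293-derived lines express, 12 were at 1 CPM (counts scaled to a common library size) or more in the control. None of 6 fibroblast and endothelial markers reached that level. The targeted RNA remained at 5.31% of control for IGF2BP1, 40.2% for IGF2BP2 and 43.8% for IGF2BP3 in total RNA. The counts of total RNA replicate 2 and nuclear RNA replicate 1 of the IGF2BP1 knockout were identical, with 0 of 62703 identifiers differing, so 31 libraries were distinct and it is not known which RNA that library holds. Changes of IKBKE, TBK1, TANK, TRAF3, IRF3 and STING1 against control in total and nuclear RNA of the IGF2BP1 knockout are therefore also given without it, with the remaining library assumed to vary like the other groups.

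Levels are CPM scaled with TMM, which sets the bulk of genes to no change, and a gene is said to have risen or fallen where its adjusted p in the edgeR fit was under 0.05. The choice of scale touched the smaller changes. With library totals alone, an alternative chosen after the data were seen, the median log2 change of all genes moved from between 0.00 and 0.02 to 0.06, 0.02 and 0.09 in the IGF2BP1 knockout (total, nuclear and cytoplasmic RNA), to 0.20, 0.10 and 0.24 for IGF2BP2, and to 0.24, 0.13 and 0.29 for IGF2BP3. The share of called genes that were higher moved with it, in total RNA from 44.1% to 56.2%, from 49.6% to 69.0% and from 50.1% to 73.3%, and in cytoplasmic RNA from 50.7% to 63.2%, from 48.2% to 68.0% and from 48.6% to 72.9%. In nuclear RNA it moved from 49.9% to 60.6% in the IGF2BP2 knockout and from 49.8% to 63.6% in the IGF2BP3 knockout.

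The member RNAs differed widely in level. Per kilobase of exon in control total RNA, IRF3 was highest at 18.1 ± 0.66 CPM (SD, n = 4), followed by TRAF3 at 11.6 ± 0.72 and TBK1 at 11.0 ± 0.63, whose ranges overlapped. TANK followed at 4.69 ± 0.30, IKBKE at 2.54 ± 0.20 and STING1 at 0.53 ± 0.14, with no overlap between neighbours from IRF3 to TRAF3 and from TBK1 down. CGAS and IFI16 were near the detection limit and TREX1 had no read. In nuclear and cytoplasmic RNA, TBK1 lay above TRAF3 without overlap, at 12.3 ± 0.82 against 8.31 ± 0.66 and at 10.9 ± 0.53 against 9.36 ± 0.36 CPM per kilobase.

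**Figure D1:**
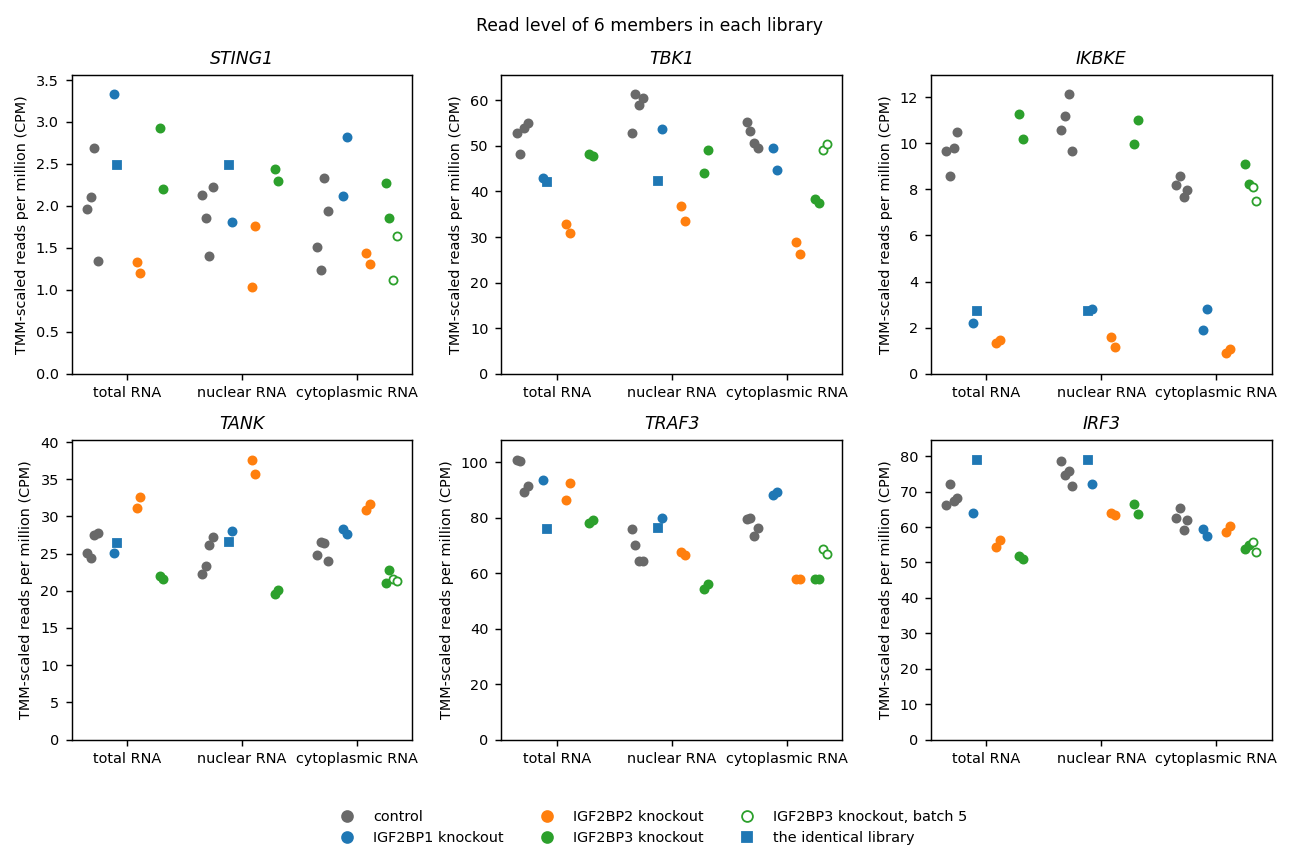
TMM-scaled CPM (vertical axis, starting at 0) of the 6 members with at least 10 reads in every library, for each library of total, nuclear and cytoplasmic RNA. Points are libraries coloured by genotype, open circles are batch 5, and squares are the library deposited under total and nuclear RNA. IKBKE in the IGF2BP1 and IGF2BP2 knockouts lies far below the control in each kind of RNA, while the other genes move by much less.

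IKBKE encodes IKKε, the inducible relative of TBK1. It lies on chromosome 1, from 206470476 to 206496889 on the plus strand of GRCh38, and its start site is the one whose upstream sequence is shown here because its RNA fell most among the members. The IFI16 window, also on chromosome 1, belongs to the member whose reads rose most. Both are the 250 bases before a RefSeq transcript start (GRCh38.p14, plus strand), at chr1:206470226-206470475 for IKBKE and chr1:159008741-159008990 for IFI16.
IKBKE: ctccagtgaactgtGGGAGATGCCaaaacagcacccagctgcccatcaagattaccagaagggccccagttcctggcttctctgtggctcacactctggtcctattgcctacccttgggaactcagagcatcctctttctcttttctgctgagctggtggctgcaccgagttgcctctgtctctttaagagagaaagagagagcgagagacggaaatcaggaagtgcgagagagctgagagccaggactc
IFI16: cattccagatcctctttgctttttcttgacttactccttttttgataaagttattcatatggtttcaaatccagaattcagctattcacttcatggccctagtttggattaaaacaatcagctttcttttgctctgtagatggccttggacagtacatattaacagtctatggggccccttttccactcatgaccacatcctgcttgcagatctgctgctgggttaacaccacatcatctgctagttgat
Capitals mark a match to a loose form of the NF-kappaB motif, GGG and CC with 5 bases of any kind between them, read on both strands. It occurs in 54.4% of 35116 such windows in the RefSeq table, so its presence before IKBKE is common. Neither window holds the ISRE-like pair of GAAA set 2 bases apart (3.0% of windows), the GAS-like TTCNNNGAA (6.6%), the GC box GGGCGG (42.6%), the E-box CACGTG (6.3%), the CRE TGACGTCA (1.6%), TATAAA (10.7%) or CCAAT (32.0%). The GC content was 54.0% before IKBKE and 40.4% before IFI16. Of the 9 members, 6 had a window in the table, and the other IFI16 start there has 1 TATAAA and 1 CCAAT. A match is only a description of these letters.

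IKBKE RNA was lower by more than 3-fold in the IGF2BP1 knockout and by about 7-fold or more in the IGF2BP2 knockout in all 3 kinds of RNA, and it was at the control level in the IGF2BP3 knockout. In total RNA the control libraries held 9.67, 8.60, 9.80 and 10.5 CPM. The IGF2BP1 knockout held 2.22 and 2.73 CPM, the IGF2BP2 knockout 1.33 and 1.49 CPM and the IGF2BP3 knockout 11.3 and 10.2 CPM. Every library of the first 2 knockouts lay below every control library, and those of the third lay within or above the control range. The fitted level was 27.1% of control in the IGF2BP1 knockout (log2 change -1.88 ± 0.18, standard error, adjusted p = 1.45e-05), and 14.1% in the IGF2BP2 knockout (-2.83 ± 0.19, adjusted p = 3.07e-07). In the IGF2BP3 knockout the log2 change was 0.09 ± 0.14 (adjusted p = 0.629). In bulk RNA, fewer cells that express a gene and less RNA in each cell cannot be told apart.

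In nuclear RNA the control held 10.6, 11.2, 12.1 and 9.67 CPM of IKBKE. The IGF2BP1 knockout held 2.73 and 2.81 CPM, the IGF2BP2 knockout 1.59 and 1.16 CPM and the IGF2BP3 knockout 9.95 and 11.0 CPM. The first 2 knockouts again lay below the control without overlap, the IGF2BP2 knockout lowest, and the IGF2BP3 libraries lay within the control range. IKBKE fell to 25.5% of control in the IGF2BP1 knockout (-1.97 ± 0.18, adjusted p = 7.50e-12) and to 12.3% in the IGF2BP2 knockout (-3.02 ± 0.22, adjusted p = 6.20e-16). The IGF2BP3 knockout gave -0.06 ± 0.16 (adjusted p = 0.785). Without the library that is deposited under both kinds, the change in the IGF2BP1 knockout was -2.11 in total RNA (adjusted p = 2.37e-08) and -1.99 in nuclear RNA (adjusted p = 1.17e-08).

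In cytoplasmic RNA the control held 8.19, 8.57, 7.66 and 7.96 CPM of IKBKE. The IGF2BP1 knockout held 1.92 and 2.82 CPM, the IGF2BP2 knockout 0.912 and 1.06 CPM, and the IGF2BP3 knockout 9.10 and 8.22 CPM in batches 3 and 4 and 8.12 and 7.49 CPM in batch 5. The IGF2BP3 libraries overlapped the control. IKBKE fell to 28.2% of control in the IGF2BP1 knockout (-1.83 ± 0.16, adjusted p = 3.29e-11) and to 12.6% in the IGF2BP2 knockout (-2.99 ± 0.20, adjusted p = 3.00e-15). The IGF2BP3 knockout gave 0.15 ± 0.12 (adjusted p = 0.313). With library totals alone that value was 0.41 (adjusted p = 0.00424) against a shift of 0.29 of the median gene, and with upper quartile scaling it was 0.31 (adjusted p = 0.0270).

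The fall of IKBKE in the IGF2BP1 and IGF2BP2 knockouts was called in 63 of 63 alternative analyses of each. The members were chosen with this fall known from these data, and the alternatives refit the same libraries. The count shows only that processing did not remove the fall, and it is no independent support. In the 57 of these that used counts, the log2 change lay between -2.12 and -1.60 in the IGF2BP1 knockout and between -3.19 and -2.64 in the IGF2BP2 knockout. IKBKE was also lower in the IGF2BP2 than in the IGF2BP1 knockout, by -0.94 ± 0.28 in total RNA (adjusted p = 0.0200), -1.05 ± 0.31 in nuclear RNA (adjusted p = 0.00742) and -1.16 ± 0.28 in cytoplasmic RNA (adjusted p = 0.000881). These contrasts cross batches through the controls. In total RNA the call was lost with DESeq2 (adjusted p = 0.0548), and without control replicate 2 (-0.72), control replicate 4 (-0.86), IGF2BP1 knockout replicate 2 (-0.72), IGF2BP2 knockout replicate 1 (-0.86) or replicate 2 (-1.06). In nuclear RNA it was lost without control replicate 3 (-0.88) or IGF2BP2 knockout replicate 2 (-0.85).

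TBK1 encodes the constitutive kinase of the pair and lies on chromosome 12, from 64451880 to 64502108 on the plus strand. Its RNA fell to little more than 55% of control in the IGF2BP2 knockout and changed by less in the other knockouts. In total RNA the control held 52.9, 48.2, 53.9 and 54.9 CPM, the IGF2BP1 knockout 43.0 and 42.2, the IGF2BP2 knockout 32.9 and 30.9, and the IGF2BP3 knockout 48.2 and 47.9 CPM. The first 2 knockouts lay below all control libraries, while the third touched the lowest control. TBK1 fell to 58.6% of control in the IGF2BP2 knockout (-0.77 ± 0.10, adjusted p = 4.26e-05). The log2 changes of -0.25 ± 0.10 in the IGF2BP1 knockout (adjusted p = 0.0845) and -0.18 ± 0.10 in the IGF2BP3 knockout (adjusted p = 0.148) were not called. The first of these was called without control replicate 2 (-0.29, adjusted p = 0.0301) and without the IGF2BP1 library that has a copy (-0.29, adjusted p = 0.0328). The IGF2BP3 value was called when control replicate 1 or 2, or IGF2BP1 knockout replicate 1 or 2, was left out (-0.18 in each case), and with batches 3 and 4 alone (-0.17, adjusted p = 0.0326).

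In nuclear RNA TBK1 stood at 52.8, 61.4, 59.0 and 60.5 CPM in the control. The IGF2BP1 knockout held 42.3 and 53.8, the IGF2BP2 knockout 36.9 and 33.5 and the IGF2BP3 knockout 44.1 and 49.2 CPM. The last 2 knockouts lay below all controls. TBK1 fell to 58.7% of control in the IGF2BP2 knockout (-0.77 ± 0.10, adjusted p = 1.33e-08) and to 78.1% in the IGF2BP3 knockout (-0.36 ± 0.10, adjusted p = 0.00198). The IGF2BP3 call was lost without control replicate 4 (-0.34, adjusted p = 0.0576) or IGF2BP3 knockout replicate 1 (-0.26, adjusted p = 0.138). The IGF2BP1 value of -0.25 ± 0.10 (adjusted p = 0.0470) passed the threshold narrowly and did so in 2 of 20 alternatives. It was lost when any library was left out, at -0.32 to -0.19, and was -0.19 (adjusted p = 0.269) without the library that has a copy.

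In cytoplasmic RNA the control held 55.2, 53.2, 50.6 and 49.6 CPM of TBK1. The IGF2BP1 knockout held 49.5 and 44.7, the IGF2BP2 knockout 28.9 and 26.3, and the IGF2BP3 knockout 38.3 and 37.5 CPM in batches 3 and 4 but 49.0 and 50.3 CPM in batch 5. The batch 5 libraries thus stood near the control of other batches, and no control of their own batch exists. TBK1 fell to 55.2% of control in the IGF2BP2 knockout (-0.86 ± 0.06, adjusted p = 5.58e-14) and, against the controls of batches 3 and 4, to 75.8% in the IGF2BP3 knockout (-0.40 ± 0.06, adjusted p = 4.36e-07). With library totals the latter was -0.13 (adjusted p = 0.0489). In the IGF2BP1 knockout it fell to 86.9% (-0.20 ± 0.06, adjusted p = 0.00443). That call was lost with library totals (-0.13), with DESeq2 (-0.20, adjusted p = 0.0521), without control replicate 2 (-0.16) and without IGF2BP1 knockout replicate 2 (-0.16). An antisense gene overlaps 14.7% of TBK1's exon bases, and whether the counting used strand is not given in the sources used here.

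Since IKBKE and TBK1 are partly exchangeable kinases, their RNAs were set against each other within each library, per kilobase of exon. For every 100 units of TBK1 the control held 22.4 to 24.0 units of IKBKE in total RNA, 20.1 to 25.9 in nuclear RNA and 18.6 to 20.3 in cytoplasmic RNA. The IGF2BP1 knockout held 6.50 to 8.12, 6.56 to 8.12 and 4.88 to 7.92, and the IGF2BP2 knockout 5.08 to 6.04, 4.34 to 5.40 and 3.96 to 5.05. The IGF2BP3 knockout held 26.8 to 29.4 in total RNA and 28.1 to 28.3 in nuclear RNA, and 18.7 to 29.8 in cytoplasmic RNA, where the lowest values were those of batch 5. This ratio does not depend on how libraries are scaled. It was below the control range in every library of the IGF2BP1 and IGF2BP2 knockouts, and above it in every total and nuclear library of the IGF2BP3 knockout.

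**Figure D2:**
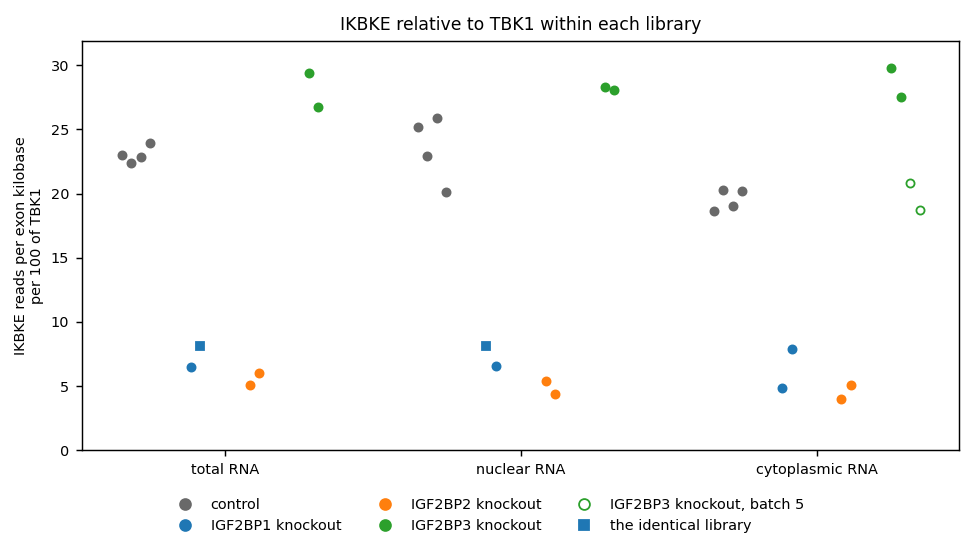
IKBKE reads per exon kilobase for every 100 of TBK1 (vertical axis, starting at 0) in each library, by kind of RNA. Points are libraries coloured by genotype, open circles are batch 5 and squares the library deposited under 2 kinds of RNA. The IGF2BP1 and IGF2BP2 knockouts sit between 3.96 and 8.12, below the control libraries at 18.6 to 25.9.

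TANK, the scaffold that binds both kinases, lies on chromosome 2 from 161136908 to 161236221 on the plus strand. It was higher in the IGF2BP2 knockout and lower in the IGF2BP3 knockout, by less than 1.5-fold either way. In nuclear RNA the control held 22.2, 23.3, 26.2 and 27.2 CPM, the IGF2BP1 knockout 26.5 and 28.1, the IGF2BP2 knockout 37.6 and 35.7 and the IGF2BP3 knockout 19.6 and 20.1 CPM. The IGF2BP2 libraries were above and the IGF2BP3 libraries below all others. TANK rose to 137% of control in the IGF2BP2 knockout (0.46 ± 0.11, adjusted p = 0.000358) and fell to 74.4% in the IGF2BP3 knockout (-0.43 ± 0.11, adjusted p = 0.00109). The latter call was lost without control replicate 4 (-0.39, adjusted p = 0.0536).

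In total RNA TANK stood at 25.1, 24.4, 27.4 and 27.8 CPM in the control, where the IGF2BP1 knockout held 25.0 and 26.5, the IGF2BP2 knockout 31.1 and 32.6 and the IGF2BP3 knockout 21.9 and 21.6 CPM. In cytoplasmic RNA it stood at 24.8, 26.6, 26.5 and 24.1 CPM in the control, where the IGF2BP1 knockout held 28.3 and 27.6, the IGF2BP2 knockout 30.8 and 31.7 and the IGF2BP3 knockout 21.0, 22.8, 21.5 and 21.3 CPM. The IGF2BP2 libraries were again above and the IGF2BP3 libraries below every control. TANK rose in cytoplasmic RNA of the IGF2BP2 knockout (0.31 ± 0.07, adjusted p = 0.000461), a call lost without control replicate 4 (0.21, adjusted p = 0.0628). In total RNA of that knockout the change was 0.21 ± 0.10 (adjusted p = 0.123), and it was called with 8 of 20 alternatives, among them library totals (0.39, adjusted p = 0.00777).

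In the IGF2BP3 knockout TANK fell in total RNA (-0.34 ± 0.11, adjusted p = 0.0166) and in cytoplasmic RNA (-0.20 ± 0.08, adjusted p = 0.0225). Both calls depended on the scale, since library totals gave -0.13 in total RNA (adjusted p = 0.335) and a change of sign to 0.07 in cytoplasmic RNA (adjusted p = 0.452). The total RNA call was also lost without control replicate 3 (-0.35) or 4 (-0.34) or IGF2BP3 knockout replicate 1 (-0.38) or 2 (-0.31). The cytoplasmic call was lost without control replicate 3 (-0.08) or IGF2BP3 knockout replicate 1 (-0.13). In the IGF2BP1 knockout TANK gave 0.06 ± 0.11, 0.26 ± 0.11 and 0.12 ± 0.07 in total, nuclear and cytoplasmic RNA, none of them called. Without the library that has a copy they were -0.00038 in total RNA and 0.27 in nuclear RNA (adjusted p = 0.135).

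TRAF3, on chromosome 14 from 102777476 to 102911500 on the plus strand, had smaller standard errors in cytoplasmic than in total RNA. It was called in every knockout only in cytoplasmic RNA. There the control held 79.5, 80.0, 73.6 and 76.3 CPM, the IGF2BP1 knockout 88.3 and 89.4, the IGF2BP2 knockout 58.0 and 57.7, and the IGF2BP3 knockout 57.8 and 57.7 CPM in batches 3 and 4 and 68.8 and 66.8 CPM in batch 5. No knockout library overlapped the control. TRAF3 fell to 77.2% of control in the IGF2BP2 knockout (-0.37 ± 0.05, adjusted p = 6.42e-08) and to 77.0% in the IGF2BP3 knockout (-0.38 ± 0.05, adjusted p = 4.40e-08). With library totals the first was -0.15 and still called, and the second was -0.11 (adjusted p = 0.0528). TRAF3 rose to 111% in the IGF2BP1 knockout (0.16 ± 0.05, adjusted p = 0.00701), a call lost when any of the control or IGF2BP1 knockout libraries of batches 1 and 2 was left out (0.15 to 0.16, adjusted p = 0.0815 to 0.107).

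In nuclear RNA TRAF3 stood at 75.8, 70.0, 64.2 and 64.5 CPM in the control, where the IGF2BP1 knockout held 76.2 and 80.0, the IGF2BP2 knockout 67.5 and 66.6 and the IGF2BP3 knockout 54.4 and 56.2 CPM. The IGF2BP1 libraries lay above all controls, the IGF2BP2 libraries within their range and the IGF2BP3 libraries below it. Without the library that has a copy, the IGF2BP1 value was 0.19 (adjusted p = 0.216). The change in the IGF2BP3 knockout of -0.22 ± 0.09 (adjusted p = 0.0476) was called in 6 of 20 alternatives. It was lost without control replicate 3 (-0.22, adjusted p = 0.267) or 4 (-0.22, adjusted p = 0.239), IGF2BP2 knockout replicate 1 (-0.22) or 2 (-0.22) and IGF2BP3 knockout replicate 1 (-0.20) or 2 (-0.25). In total RNA the control held 101, 100, 89.4 and 91.4 CPM, the IGF2BP1 knockout 93.7 and 76.0, the IGF2BP2 knockout 86.5 and 92.5 and the IGF2BP3 knockout 78.1 and 79.3 CPM. The IGF2BP3 libraries were below all controls and 1 library of each other knockout lay within the control range. None of these changes was called. The IGF2BP1 knockout gave -0.25 ± 0.10 (adjusted p = 0.0777), the IGF2BP2 knockout -0.02 ± 0.10 and the IGF2BP3 knockout -0.20 ± 0.10 (adjusted p = 0.109). The IGF2BP1 value was called without control replicate 1 (-0.40, adjusted p = 0.000443) or IGF2BP1 knockout replicate 1 (-0.41, adjusted p = 0.000358), which leaves the library with the copy as the only one, and was -0.10 (adjusted p = 0.461) without that library.

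IRF3, the transcription factor at the end of the branch, lies on chromosome 19 from 49659569 to 49665875 on the minus strand, and 19.3% of its exon bases overlap BCL2L12 on the opposite strand. Its RNA differed from control by at most 1.32-fold. In total RNA the control held 66.3, 72.1, 67.5 and 68.2 CPM, the IGF2BP1 knockout 63.8 and 78.8, the IGF2BP2 knockout 54.2 and 56.4 and the IGF2BP3 knockout 51.8 and 51.1 CPM. The last 2 knockouts lay below all control libraries and the IGF2BP1 libraries on either side of them. IRF3 fell to 75.8% of control in the IGF2BP3 knockout (-0.40 ± 0.10, adjusted p = 0.00403) and to 81.5% in the IGF2BP2 knockout (-0.29 ± 0.10, adjusted p = 0.0228). With library totals these were -0.18 and -0.11, not called. The IGF2BP3 call was also lost without control replicate 3 (-0.40, adjusted p = 0.0567) or 4 (-0.40, adjusted p = 0.0607) or IGF2BP3 knockout replicate 1 (-0.43) or 2 (-0.38). The IGF2BP2 call was lost without control replicate 3 (-0.31) or 4 (-0.30), IGF2BP2 knockout replicate 1 (-0.27) or 2 (-0.33), or IGF2BP3 knockout replicate 1 (-0.30) or 2 (-0.30).

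In nuclear RNA IRF3 stood at 78.5, 74.6, 75.9 and 71.6 CPM in the control, where the IGF2BP1 knockout held 79.0 and 72.2, the IGF2BP2 knockout 64.0 and 63.4 and the IGF2BP3 knockout 66.6 and 63.6 CPM. The log2 changes of -0.21 ± 0.09 (adjusted p = 0.0539) and -0.18 ± 0.09 (adjusted p = 0.0970) in the last 2 were not called, although neither group overlapped the control. In the IGF2BP1 knockout, without the library that has a copy, IRF3 gave -0.05 in total RNA (adjusted p = 0.763) and -0.05 in nuclear RNA (adjusted p = 0.822). In cytoplasmic RNA the control held 62.5, 65.4, 59.2 and 62.1 CPM, the IGF2BP1 knockout 59.5 and 57.5, the IGF2BP2 knockout 58.5 and 60.3 and the IGF2BP3 knockout 53.7, 55.0, 55.7 and 52.9 CPM. The IGF2BP3 libraries were below all controls, and the other knockouts had 1 library each within the control range. IRF3 fell in the IGF2BP3 knockout (-0.16 ± 0.05, adjusted p = 0.00974), but upper quartile scaling gave 0.01 and library totals 0.11, neither called. That call was also lost without control replicate 3 (-0.15) or 4 (-0.14) or IGF2BP3 knockout replicate 1 (-0.16) or 2 (-0.14). The IGF2BP2 value of -0.03 ± 0.05 became 0.19 (adjusted p = 0.00220) with library totals. The IGF2BP1 value of -0.13 ± 0.05 (adjusted p = 0.0492) held in 2 of 23 alternatives and was lost when any single library was left out, at -0.19 to -0.07.

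STING1, which encodes the adaptor, was a low RNA, with 15 to 79 reads in a library. It lies on chromosome 5 from 139475534 to 139482935 on the minus strand. In cytoplasmic RNA the control held 1.51, 1.24, 2.34 and 1.95 CPM, the IGF2BP1 knockout 2.12 and 2.82, the IGF2BP2 knockout 1.444 and 1.31, and the IGF2BP3 knockout 2.28, 1.86, 1.12 and 1.64 CPM. All groups overlapped the control, whose libraries of batches 1 and 2 were lower than those of batches 3 and 4. Within batches, STING1 rose to 179% in the IGF2BP1 knockout (0.84 ± 0.26, adjusted p = 0.00874) and fell to 64.4% in the IGF2BP2 knockout (-0.63 ± 0.27, adjusted p = 0.0378). The rise was lost with DESeq2 (adjusted p = 0.0998), without control replicate 2 (0.48) and without IGF2BP1 knockout replicate 2 (0.48). The fall was lost with DESeq2 (adjusted p = 0.200), with library totals (-0.41), and without control replicate 3 (-0.60) or 4 (-0.64) or IGF2BP2 knockout replicate 1 (-0.56) or 2 (-0.71).

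In total RNA STING1 stood at 1.96, 2.11, 2.69 and 1.35 CPM in the control, where the IGF2BP1 knockout held 3.33 and 2.48, the IGF2BP2 knockout 1.33 and 1.21 and the IGF2BP3 knockout 2.93 and 2.20 CPM. The changes of 0.52 ± 0.25, -0.64 ± 0.29 and 0.34 ± 0.25 were not called. The IGF2BP2 value of -0.64 was called when any control or IGF2BP1 library of batches 1 and 2 was left out (-0.66 to -0.65). In nuclear RNA it stood at 2.13, 1.86, 1.41 and 2.23 CPM in the control, where the IGF2BP1 knockout held 2.49 and 1.80, the IGF2BP2 knockout 1.03 and 1.76 and the IGF2BP3 knockout 2.44 and 2.30 CPM, again with no call. Without the library that has a copy, the IGF2BP1 value was 0.77 in total RNA (adjusted p = 0.0788) and -0.04 in nuclear RNA (adjusted p = 0.959). Between knockouts, STING1 was lower in the IGF2BP2 than in the IGF2BP1 knockout in total RNA (-1.16 ± 0.38, adjusted p = 0.0331) and in cytoplasmic RNA (-1.47 ± 0.37, adjusted p = 0.00134), while nuclear RNA gave -0.43 ± 0.43 (adjusted p = 0.501). In total RNA that difference was lost in 8 of 13 alternatives.

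**Figure D3:**
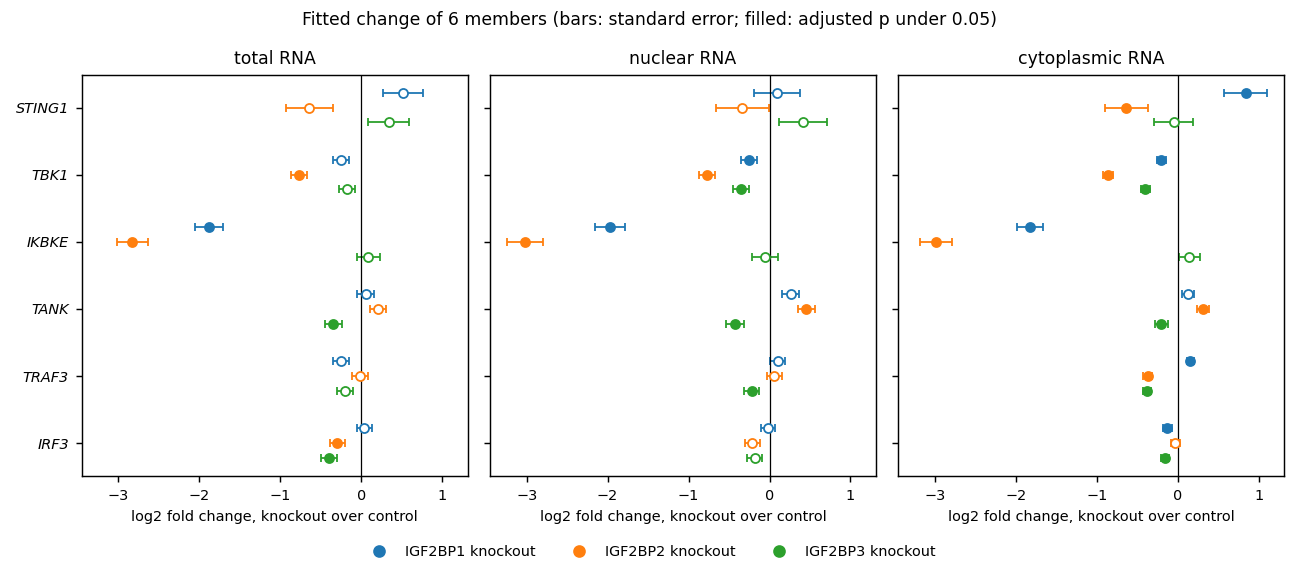
Fitted log2 fold change of each knockout over control (horizontal axis) for the 6 members with at least 10 reads in every library, in total, nuclear and cytoplasmic RNA. Bars are standard errors and filled symbols passed an adjusted p of 0.05. IKBKE stands apart at -1.83 to -3.02 in the IGF2BP1 and IGF2BP2 knockouts, and no other of these values lies beyond 0.86 in either direction.

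CGAS and IFI16, the DNA sensors, were barely detected. A library of this depth gives 0 reads for a gene unless its level is near a few reads in all, so their values are counts of single reads. CGAS (chromosome 6, 73413515 to 73452276, minus strand) had 1, 2, 3 and 1 reads in the total RNA libraries of the control, while the IGF2BP1 knockout had 8 and 6, the IGF2BP2 knockout 5 and 18 and the IGF2BP3 knockout 12 and 1. Relative to library totals, the summed reads were 6.75 times the control in the IGF2BP2 knockout (95% interval 2.81 to 18.6, exact and for counting error only), 3.94 times in the IGF2BP1 knockout (1.49 to 11.5) and 3.38 times in the IGF2BP3 knockout (1.25 to 10.0). The 6 reads of the IGF2BP1 knockout are those of the library that has a copy. In the IGF2BP3 knockout 1 of the 2 libraries held nearly all the reads, so the spread between libraries is larger than the counting error.

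CGAS passed the filter on low counts in total RNA only, where no change was called. It passed through IGF2BP2 knockout replicate 2 (18 reads) and IGF2BP3 knockout replicate 1 (12 reads), while no control library exceeded 3 reads. A difference from control was thus built into the selection, as for IFI16 below. The IGF2BP2 knockout had an adjusted p of 0.0596, and 9 of 16 alternatives called it. In nuclear RNA CGAS had 0, 8, 0 and 2 reads in the control and 7 and 8 in the IGF2BP2 knockout (3.44 times, 1.45 to 8.57), with 6 and 2 in the IGF2BP1 and 6 and 5 in the IGF2BP3 knockout. In cytoplasmic RNA it had 0, 1, 2 and 2 reads in the control and 10 and 10 in the IGF2BP2 knockout (6.71 times, 2.44 to 22.9), with 4 and 1 in the IGF2BP1 and 2, 3, 3 and 4 in the IGF2BP3 knockout. The IGF2BP2 libraries were above every control in cytoplasmic and total RNA. In nuclear RNA their reads overlapped the control, whose highest library had 8, but scaled for depth they were at 0.483 and 0.343 CPM, above its 0.324 CPM.

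IFI16 (chromosome 1, 158999968 to 159055155, plus strand) had 0 reads in 11 of the 12 control libraries and 1 read in total RNA replicate 3. The IGF2BP3 knockout had 13 and 10 reads in its total RNA libraries, 16 and 12 in the nuclear ones and 15, 9, 11 and 5 in the cytoplasmic ones, so every library of that clone was above every control. The other knockouts had at most 4 reads in a library. IFI16 was tested only because its reads in the IGF2BP3 knockout passed the filter, so a difference there was built into the selection. It was called higher in that knockout in total RNA (adjusted p = 0.00877), nuclear RNA (adjusted p = 3.14e-05) and cytoplasmic RNA (adjusted p = 0.000514).

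Set against a floor of 3 reads summed over the control group, IFI16 was at least 20.4-fold higher in nuclear RNA and at least 10.8-fold higher in cytoplasmic RNA of the IGF2BP3 knockout. In total RNA, with 1 control read, the ratio was 41.8 (95% interval 6.79 to 1723). The call in total RNA was lost with DESeq2 (adjusted p = 0.120) and without control replicate 3 (adjusted p = 0.0506) or 4 (adjusted p = 0.104) or IGF2BP3 knockout replicate 1 (adjusted p = 0.131) or 2 (adjusted p = 0.0628). The IGF2BP2 knockout had 4 and 4 reads in nuclear RNA, at least 6.12-fold higher than the floor (adjusted p = 0.0114). That call was lost without the filter (adjusted p = 0.0521), with DESeq2 (adjusted p = 0.0636), with limma (adjusted p = 0.213 and 0.0869), and without nuclear control replicate 3 (adjusted p = 0.141) or IGF2BP2 knockout replicate 1 (adjusted p = 0.0620).

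**Figure D4:**
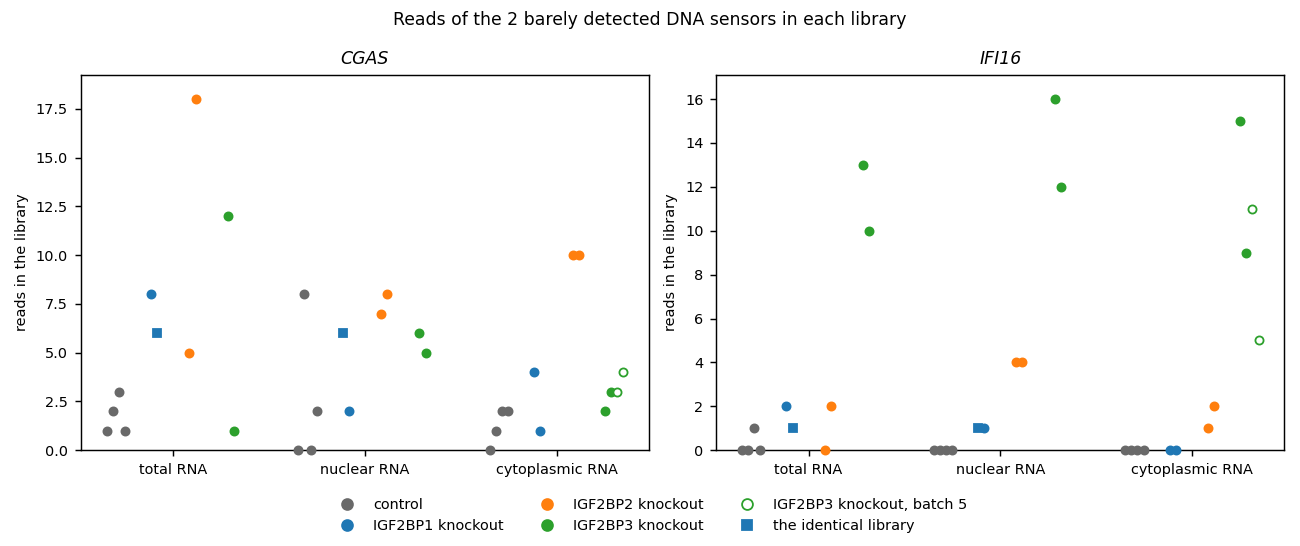
Reads of CGAS and IFI16 in each library (vertical axis, starting at 0), by kind of RNA. Points are libraries coloured by genotype, open circles are batch 5 and squares the library deposited under 2 kinds of RNA. IFI16 reads are at 5 to 16 in the libraries of the IGF2BP3 knockout and at 0 to 4 elsewhere, and CGAS does not exceed 18.

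TREX1 had 0 reads in all 32 libraries. It lies on chromosome 3 from 48465811 to 48467645 on the plus strand, and all 1515 of its exon bases in GENCODE 29 lie inside exons of ATRIP on the same strand. ATRIP itself had 7300, 8118 and 8599 reads summed over the total, nuclear and cytoplasmic libraries. Of 263 genes whose exons all lie within same-strand exons of others, 44.1% had no read, against 12.3% of 7134 genes that overlap none. Of 16 genes whose exons all lie within opposite-strand exons, 0 had no read. What these shares mean for the strand setting of the counting was not tested. The part of the counting in the TREX1 zeros was not tested, and the zeros give no level for its RNA.

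The members called were counted over the 6 with at least 10 reads in every library. This leaves out IFI16, tested only where 1 clone was high, and CGAS, which passed the filter only through knockout libraries. IKBKE is among the 6, and its fall was known from these data when the members were chosen. In total RNA 1 of 6 was called in the IGF2BP1 knockout, 3 of 6 in the IGF2BP2 knockout and 2 of 6 in the IGF2BP3 knockout, where 24.2%, 47.0% and 46.9% of all genes tested were called. In nuclear RNA the counts were 2, 3 and 3 of 6, beside 25.7%, 49.7% and 50.4% of all genes. In cytoplasmic RNA they were 5, 5 and 4 of 6, beside 44.4%, 64.2% and 64.7%. Over these 6 members, the IGF2BP2 knockout had a median log2 change of -0.47, -0.27 and -0.50 (in the same order of RNA kinds), where that of all genes was 0.02, 0.01 and 0.01. In the IGF2BP3 knockout it was -0.19, -0.20 and -0.18, and in the IGF2BP1 knockout -0.11, 0.04 and 0.00. Of 28 calls of members other than IFI16, 12 held in every alternative. They were IKBKE in the IGF2BP1 and IGF2BP2 knockouts and TBK1 in the IGF2BP2 knockout in the 3 kinds of RNA, TBK1 in cytoplasmic RNA of the IGF2BP3 knockout, TANK in nuclear RNA of the IGF2BP2 knockout and TRAF3 in cytoplasmic RNA of the IGF2BP2 knockout.

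The IGF2BP2 and IGF2BP3 knockouts share batches and can be compared directly. IKBKE was higher in the IGF2BP3 knockout by 2.92 ± 0.19 in total, 2.97 ± 0.22 in nuclear and 3.13 ± 0.18 in cytoplasmic RNA on the log2 scale, with adjusted p of 2.26e-07, 1.08e-15 and 8.70e-17. TBK1 was higher by 0.59 ± 0.10, 0.41 ± 0.10 and 0.46 ± 0.06, and TANK was lower by -0.55 ± 0.10, -0.88 ± 0.11 and -0.51 ± 0.07, all called. The 2 kinases and their scaffold thus differed in opposite directions between these clones. Of the same 6 members, 4, 5 and 5 were called here, beside 43.3%, 48.2% and 62.7% of all genes. For the IGF2BP3 against the IGF2BP1 knockout the counts were 2, 2 and 5 of 6 beside 34.4%, 34.7% and 51.3%. For the IGF2BP2 against the IGF2BP1 knockout they were 3, 2 and 4 of 6 beside 33.3%, 28.1% and 48.4%. TBK1 was lower in the IGF2BP2 than in the IGF2BP1 knockout by -0.52 ± 0.14, -0.51 ± 0.14 and -0.66 ± 0.09. In total RNA this was lost without control replicate 4 (-0.49) or IGF2BP2 knockout replicate 1 (-0.57) or 2 (-0.47), and in nuclear RNA without IGF2BP2 knockout replicate 2 (-0.39).

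Where the RNAs lie in control cells was read from nuclear against cytoplasmic RNA. IKBKE was relatively more nuclear (log2 ratio 0.34 ± 0.10, adjusted p = 0.00568), as was IRF3 (0.18 ± 0.06, adjusted p = 0.0109), and TRAF3 was relatively more cytoplasmic (-0.26 ± 0.06, adjusted p = 0.000603). These are 3 of 6 members tested, where 65.9% of all genes were called. The IKBKE call was lost without the nuclear (0.27) or the cytoplasmic (0.25) library of control replicate 3, and so was that of IRF3 (0.16 and 0.15). The fractions were not fully separated. In the control, 8 RNAs listed as nuclear summed to 570 to 820 CPM in nuclear and 391 to 434 CPM in cytoplasmic libraries. Among them MALAT1 had means of 104 and 21.1 CPM, but OIP5-AS1 had 83.2 and 95.7 CPM. The 8 RNAs listed as cytoplasmic summed to 14570 to 16220 CPM in nuclear control libraries. They summed to 15950 to 16990 CPM in total and 19290 to 21150 CPM in cytoplasmic ones. In the knockouts the nuclear list reached 1632 CPM in nuclear and 1215 CPM in cytoplasmic RNA. It also reached 2045 CPM in total RNA, so these knockout values do not measure separation. Whether the incomplete separation carries over into the ratios of the members was not tested.

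The ratio of nuclear to cytoplasmic RNA changed for 1 of these 6 members, in 1 knockout. It rose for TRAF3 in the IGF2BP2 knockout by 0.39 ± 0.12 on the log2 scale (adjusted p = 0.0111), where 17.5% of all genes were called. Its cytoplasmic level had fallen there while the nuclear level of 67.5 and 66.6 CPM lay in the control range. The call was lost when any of the 8 nuclear and cytoplasmic libraries of the control and the IGF2BP2 knockout in batches 3 and 4 was left out (0.36 to 0.42, adjusted p = 0.0674 to 0.182). None of the 6 was called for the IGF2BP1 knockout or the IGF2BP3 knockout, beside 4.11% and 10.9% of all genes. For IKBKE the change of the ratio was -0.13 ± 0.27 in the IGF2BP1 and -0.07 ± 0.35 in the IGF2BP2 knockout, so its fall in the nucleus and in the cytoplasm differed by less than the error. Of the 2 nuclear libraries of the IGF2BP1 knockout in this fit, 1 is the library deposited under both kinds. It may not hold nuclear RNA, which limits every ratio of that knockout.

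Other genes of the pathway were followed as 5 lists. Of all genes tested, 10.7%, 12.7% and 22.5% were called higher and 13.5%, 13.0% and 21.9% lower in the IGF2BP1 knockout (total, nuclear and cytoplasmic RNA). In the IGF2BP2 knockout 23.3%, 24.8% and 30.9% were higher and 23.7%, 24.9% and 33.2% lower, and in the IGF2BP3 knockout 23.5%, 25.1% and 31.5% higher and 23.4%, 25.3% and 33.2% lower. Among DNA sensors and their cofactors, 14 of 17 were tested, and most of those called were lower in the IGF2BP2 and IGF2BP3 knockouts. In total RNA 9 were lower and 1 higher in the IGF2BP2 knockout and 10 lower and 0 higher in the IGF2BP3 knockout, with medians of -0.35 and -0.43. In cytoplasmic RNA 10 were lower in each, beside 3 and 2 higher, with medians of -0.55 and -0.61, and in nuclear RNA 8 were lower in each, beside 3 and 1 higher. The medians stayed below 0 with library totals, at -0.17 and -0.22 in total RNA and -0.33 and -0.34 in cytoplasmic RNA, but in total RNA the counts became 5 lower and 2 higher for IGF2BP2 and 6 lower and 1 higher for IGF2BP3. The IGF2BP1 knockout had 2, 1 and 5 lower and 1, 1 and 3 higher in total, nuclear and cytoplasmic RNA, where leaving out the library with a copy gave 1 and 0 lower and 1 and 1 higher in total and nuclear RNA. LRRFIP1, a cytosolic nucleic acid sensor, fell in all 9 comparisons with control, most in the IGF2BP3 knockout (log2 changes of -1.23, -1.14 and -1.30 in total, nuclear and cytoplasmic RNA). It gave -0.35, -0.31 and -0.57 for IGF2BP2, where the first 2 were not called with library totals. For IGF2BP1 it gave -0.30, -0.31 and -0.17, where library totals ended the first and the last call and leaving out the library with a copy ended the first 2, at -0.15 and -0.18. HNRNPA2B1, an RNA-binding protein also described as a nuclear DNA sensor, fell to log2 changes of -0.88, -0.76 and -1.15 for IGF2BP2 and of -0.66, -0.62 and -0.775 for IGF2BP3. XRCC5, the Ku80 subunit, also fell in both, at -0.64, -0.47 and -0.82 for IGF2BP2 and -0.87, -0.67 and -1.15 for IGF2BP3.

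Of the nucleases and genes that handle cGAMP, 14 of 15 were tested. In total RNA 5 were lower and 2 higher in each of the IGF2BP2 and IGF2BP3 knockouts, with medians of -0.00488 and -0.14. In nuclear RNA 3 were lower and 2 higher for IGF2BP2, and 4 lower and 4 higher for IGF2BP3, with medians of -0.04 and 0.10. In cytoplasmic RNA 9 were lower and 3 higher for IGF2BP2, and 8 lower and 3 higher for IGF2BP3. Their medians of -0.23 and -0.22 became 0.00 and 0.05 with library totals, where the median gene stood at 0.24 and 0.29. The IGF2BP1 knockout had 1, 0 and 4 lower and 1, 0 and 3 higher in total, nuclear and cytoplasmic RNA. RNASEH2A, a subunit of the enzyme that removes RNA from DNA, fell in the IGF2BP2 knockout (-1.57, -1.30 and -1.35 in total, nuclear and cytoplasmic RNA) and in the IGF2BP3 knockout (-0.93, -0.94 and -1.12). In the IGF2BP1 knockout it rose in total RNA by 0.84 (adjusted p = 0.00723), a call lost without the library that has a copy (0.60, adjusted p = 0.125), and gave -0.21 in nuclear and -0.47 in cytoplasmic RNA, neither called. Its partner RNASEH2C fell in the IGF2BP2 knockout (-0.83, -0.87 and -0.70) but rose in the IGF2BP3 knockout by 0.58, 0.60 and 0.71. In the IGF2BP1 knockout RNASEH2C gave 0.205, -0.02 and -0.28, only the last called. LRRC8A, a channel subunit that can carry cGAMP, rose by 0.54, 0.68 and 0.37 for IGF2BP2 and by 0.57, 0.70 and 0.32 for IGF2BP3.

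The list of STING trafficking and turnover had 22 of 23 genes tested in total RNA, of which 10 fell and 4 rose for IGF2BP2, 7 rose and 5 fell for IGF2BP3, and 7 rose and 1 fell for IGF2BP1 (4 and 1 without the library that has a copy). For IGF2BP3 10 rose and 2 fell in nuclear RNA and 6 rose and 9 fell in cytoplasmic RNA. With library totals, total RNA had 8 lower and 6 higher for IGF2BP2 and 1 lower and 11 higher for IGF2BP3. Its median in total RNA of the IGF2BP2 knockout was -0.16, where that of all genes was 0.02. With library totals it became 0.03, where that of all genes was 0.20, so it lay below the median gene on both scales. In nuclear and cytoplasmic RNA it was 0.03 and -0.32, beside 0.01 and 0.01, so its place differed between kinds of RNA. RHBDF2, the iRhom2 protein that supports STING traffic, fell in every comparison with control, at -0.79 to -0.70 in the IGF2BP1 knockout, -1.41 to -1.19 in the IGF2BP2 knockout and -1.12 to -0.72 in the IGF2BP3 knockout. NPC1, a lysosomal cholesterol transporter, rose in every comparison, by 0.28 to 0.74. TRIM56, a ubiquitin ligase, rose in the IGF2BP2 knockout by 0.78, 0.42 and 0.55 (total, nuclear and cytoplasmic RNA) and in the IGF2BP3 knockout by 1.10, 0.76 and 0.95. In the IGF2BP1 knockout it gave -0.25, -0.03 and 0.49, only the last called.

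Among 29 tested partners and regulators of TBK1 and IRF3, total RNA had 7 higher and 10 lower for IGF2BP2, and 7 higher and 3 lower for IGF2BP3. The medians, -0.20 and 0.04, became -0.01 and 0.26 with library totals, where the median gene stood at 0.20 and 0.24. The counts became 11 higher and 6 lower for IGF2BP2 and 15 higher and 1 lower for IGF2BP3. OPTN, the adaptor optineurin that binds TBK1, rose in the IGF2BP3 knockout by 1.56, 1.50 and 1.33 and in the IGF2BP2 knockout by 0.60, 0.65 and 0.25. In the IGF2BP1 knockout OPTN gave -0.30, 0.30 and 0.32, the first not called, with 0.28 in nuclear RNA without the library that has a copy. TRIM21, a ubiquitin ligase of antibody-bound particles, fell in the IGF2BP2 knockout (-1.47, -1.25 and -1.48) and rose in the IGF2BP3 knockout by 0.99, 1.09 and 0.79. In the IGF2BP1 knockout TRIM21 gave 0.12, -0.57 and -0.29, only the nuclear value called, which was -0.47 without the library that has a copy. NEDD4, a ubiquitin ligase, rose in the IGF2BP2 knockout by 0.75, 0.86 and 0.45. In the IGF2BP3 knockout it gave 0.50, 0.66 and 0.16, the last not called. In the IGF2BP1 knockout it gave 0.21, 0.30 and 0.47, the first not called. Without the library that has a copy, the nuclear value of the IGF2BP1 knockout was 0.24.

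Of 16 genes that IRF3 can induce, 10 were tested, and the other 6 were too low. In total RNA 5 rose and 1 fell in the IGF2BP2 knockout and 4 rose in the IGF2BP3 knockout. The medians were 0.44 and 0.65 in total RNA and 0.60 and 0.44 in nuclear RNA. In cytoplasmic RNA they were -0.10 in the IGF2BP2 knockout and 0.55 in the IGF2BP3 knockout, where 7 rose and 2 fell. The first turned to 0.13 with library totals, where the median gene stood at 0.24. ATF3, a stress-induced transcription factor that other pathways also induce, rose in the IGF2BP2 knockout by 2.71, 2.79 and 2.70. In the IGF2BP3 knockout ATF3 rose by 0.72, 0.82 and 0.63, and in the IGF2BP1 knockout it was not called. IFIT1, an antiviral RNA-binding protein, fell in the IGF2BP2 knockout (-1.40, -1.02 and -1.13) and rose in the IGF2BP3 knockout by 0.37, 0.57 and 0.31. In the IGF2BP1 knockout IFIT1 gave 0.36, -0.37 and -0.57, only the last called. IFIT3, the binding partner of IFIT1, rose in the IGF2BP3 knockout by 1.63, 2.37 and 1.38 and in total RNA of the IGF2BP1 knockout by 2.02 (2.13 without the library that has a copy), and in the IGF2BP2 knockout it gave 1.45, 1.81 and 0.07, the last not called. Members of this list therefore moved in opposite directions within the IGF2BP2 knockout.

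**Figure D5:**
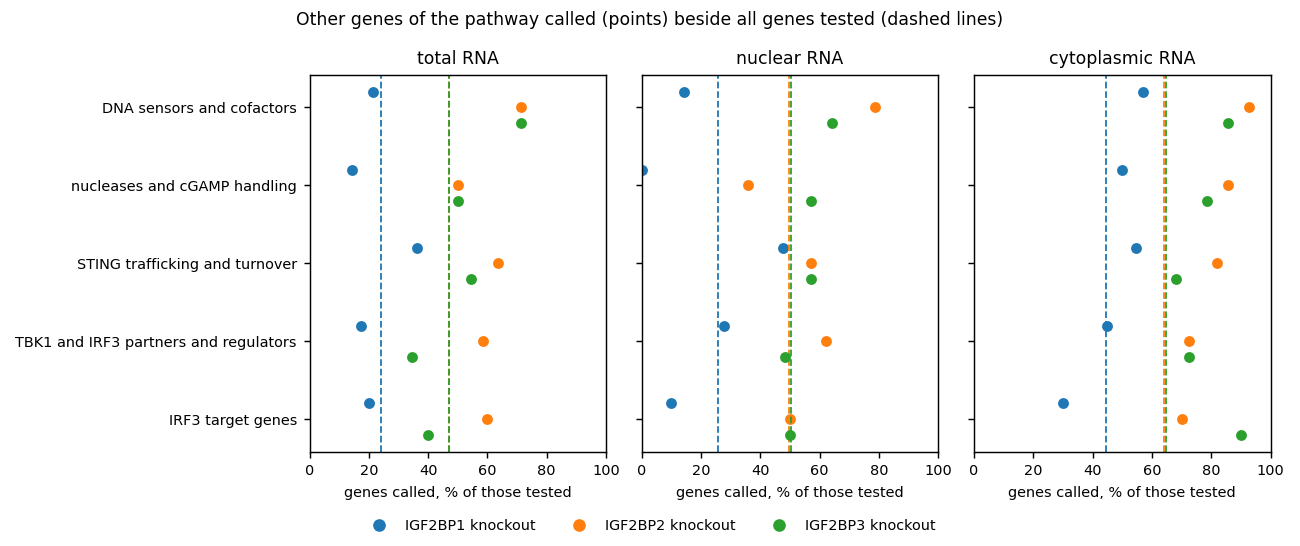
Share of the tested genes of each list that were called (horizontal axis, percent), for each knockout against control in total, nuclear and cytoplasmic RNA. Points are lists coloured by knockout and dashed lines are all genes tested in that comparison. DNA sensors and cofactors lie right of the dashed lines in the IGF2BP2 and IGF2BP3 knockouts, at 71.4% in total RNA beside 47.0% and 46.9%. STING trafficking and turnover also lies right of the line in every comparison. In total RNA it is at 36.4%, 63.6% and 54.55% for IGF2BP1, IGF2BP2 and IGF2BP3, beside 24.2%, 47.0% and 46.9%.

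The genes whose RNA followed a member most closely across the 31 distinct libraries were found among 15153 genes, from log2 CPM set against the control of the same kind and batches. For IKBKE they were MLX, POLG and STARD3, with Pearson r of 0.977, 0.974 and 0.971. For TBK1 they were HTATSF1 (0.973), CEP55 (0.968) and HSP90AA1 (0.961). TANK had MOB4, RDH10 and TTL at 0.938, TRAF3 had ANKS1A (0.912), STRBP (0.907) and TFCP2 (0.905), IRF3 had RPL7P9 (0.872), NKAIN1 (0.853) and GET3 (0.852), and STING1 had FANCD2 (0.794), SEC24D (0.765) and PPP4R4 (0.759). Among the members themselves r was 0.799 between TBK1 and IKBKE and -0.775 between IKBKE and TANK. The libraries of a clone share its genotype and batches, so these values describe how the clones differ and carry no test.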

How the data were processed

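Poly(A) libraries (Illumina Stranded mRNA kit, paired-end) of total, nuclear and cytoplasmic RNA were sequenced, per the labels' protocols. Reads per gene were counted by the authors; STAR, featureCounts, DESeq2 1.44.0 and GRCh38 are named in the submitters' processing notes, and the strand setting and annotation are not given in the sources used here. FPKM values deposited by the authors divide by the length of the whole gene, introns included (14593 of 14593 genes checked were within 1.2 times of the GENCODE 29 span), so levels between genes are given here as CPM per exon kilobase.

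Counts were fitted with edgeR 4.0.16 (R 4.3.3): TMM scaling, filterByExpr by genotype, batch as a block and 1 term for each knockout, quasi-likelihood test, and Benjamini-Hochberg adjustment over all genes tested (18745, 18732 and 18212 in total, nuclear and cytoplasmic RNA), threshold 0.05. Batch comes from the labels, where a number is shared by control and knockout libraries. Standard errors are the log2 change divided by the square root of F. Nuclear to cytoplasmic ratios used an interaction in 1 fit over batches 1 to 4. Batch 5 holds no control and adds only to the spread. Contrasts with the IGF2BP1 knockout run through controls of both pairs of batches.

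Of the 9 members, 8, 7 and 7 passed the filter on low counts, and in cytoplasmic RNA the IGF2BP1 comparison leaves out IFI16, which had no read there. Read ratios of CGAS and IFI16 carry exact 95% intervals, and 3 reads over the group are the floor where the control had 0. Intervals and floors cover counting error only. Alternatives were other scalings and filters, DESeq2 1.42.0, limma 3.58.1 on log2(FPKM + 1) and log2(FPKM + 0.1), no batch block, own batches only and each library left out; library totals, and the lists without the library deposited under both kinds, were added after seeing the data. The scripts were tested on simulated data. In each list at most 3 genes were named, those called in most of the 9 comparisons with control, ties by mean absolute log2 change, at a mean of 1 CPM or more. Genes most like a member were ranked by Pearson r. A result on the blood cell marker list is not reported here. The members and lists were chosen with earlier results of these data known. RefSeq and GENCODE gave sequences and positions.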

Additional observations from a re-analysis of the deposited data

Results flagged for a closer look

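IFI16 in control total RNA had 1 library apart from the others: replicate 3 stood at 0.0497 CPM, which is 1 read, and the other 3 libraries at 0. Of 30 groups of 4 libraries examined over the members, this was the 1 group with such a library. With the other 3 libraries at 0, any read at all is singled out by the rule, so the flag carries no weight.

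The nuclear to cytoplasmic ratio of TRAF3 changed by 0.39 on the log2 scale in the IGF2BP2 knockout against control (interaction of knockout and RNA fraction, adjusted p = 0.0111). Its knockout effect was -0.37 in cytoplasmic and 0.06 in nuclear RNA.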

How the results depend on the processing

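Of the values of single members recomputed under alternatives, 235 lost a call and 79 gained one. Of 96 that took another sign than the reported value, 92 were called in neither analysis, and 4 were called in 1 or both. Those 4 were IRF3 in cytoplasmic RNA with library totals (0.19 in the IGF2BP2 and 0.11 in the IGF2BP3 knockout) and with upper quartile scaling (0.00967 in the IGF2BP3 knockout), and TANK in cytoplasmic RNA of the IGF2BP3 knockout with library totals (0.0663). The number of members called is given here over all members tested. It includes CGAS and IFI16, which passed the filter only through knockout libraries where they were high. In the main fit total RNA had 1, 3 and 3 called in the IGF2BP1, IGF2BP2 and IGF2BP3 knockouts. Nuclear RNA had 2, 4 and 4, and cytoplasmic RNA 5, 5 and 5. In the same order of RNA kinds, IGF2BP2 against IGF2BP1 had 3, 2 and 4. For IGF2BP3 the counts were 2, 2 and 5 against IGF2BP1 and 5, 6 and 6 against IGF2BP2. Under alternatives the number of members called moved as follows. Without the replicate block (batch term left out) it was 2 and 5 in total RNA of the IGF2BP1 and IGF2BP2 knockouts, 1 in nuclear and 1 in cytoplasmic RNA of the IGF2BP1 knockout, 5 in total and 4 in nuclear RNA for IGF2BP2 against IGF2BP1, and 4 in nuclear RNA for IGF2BP3 against IGF2BP1. In the same order, 21.0%, 49.5%, 23.5%, 23.0%, 44.4%, 45.7% and 50.0% of all genes were called. That fit ended the calls of STING1 (0.50), TBK1 (-0.15), TRAF3 (0.20) and IRF3 (-0.09) in cytoplasmic RNA of the IGF2BP1 knockout, TBK1 in its nuclear RNA (-0.28) and STING1 in cytoplasmic RNA of the IGF2BP2 knockout (-0.33). With the knockout's own batches only, total RNA gave 6 for IGF2BP2 and 5 for IGF2BP3, and nuclear RNA 1 for IGF2BP1. The shares of all genes called there were 59.8%, 60.4% and 19.5%. With DESeq2 it was 1 in total RNA of the IGF2BP3 knockout, 1 in nuclear and 1 in cytoplasmic RNA of the IGF2BP1 knockout, 3 in cytoplasmic RNA of the IGF2BP3 knockout, 1 in total RNA for IGF2BP2 against IGF2BP1, 2 in cytoplasmic RNA for IGF2BP3 against IGF2BP1, and 3 in total and 3 in cytoplasmic RNA for IGF2BP3 against IGF2BP2. In the same order, 35.4%, 16.3%, 31.5%, 50.2%, 25.1%, 37.9%, 31.4% and 45.8% of all genes were called. Library totals gave 1 in total and 3 in cytoplasmic RNA of the IGF2BP3 knockout, beside 48.7% and 68.0% of all genes. In nuclear RNA of the IGF2BP1 knockout upper quartile scaling, no filter and both limma fits each gave 1, limma with 0.1 gave 3 in its cytoplasmic RNA, and the stricter filter gave 2 in nuclear RNA of the IGF2BP3 knockout. The shares of all genes were 25.5%, 11.6%, 9.51% (limma with 1), 10.0% (limma with 0.1), 38.6% and 54.3%. With 1 library left out, the counts in total, nuclear and cytoplasmic RNA ran from 1 to 2, 1 to 1 and 1 to 4 in the IGF2BP1 knockout, 2 to 6, 3 to 5 and 3 to 5 in the IGF2BP2 knockout, and 0 to 5, 1 to 5 and 2 to 5 in the IGF2BP3 knockout. They ran from 0 to 4, 0 to 2 and 4 to 5 for IGF2BP2 against IGF2BP1, 1 to 3, 2 to 3 and 2 to 5 for IGF2BP3 against IGF2BP1, 3 to 6, 2 to 6 and 3 to 7 for IGF2BP3 against IGF2BP2, 0 to 1 for the ratio in the IGF2BP2 knockout and 1 to 4 for control nuclear against cytoplasmic RNA. The share of all genes called moved between settings too. Without the batch term it rose from 28.1% to 45.7% in nuclear RNA for IGF2BP2 against IGF2BP1. It fell from 44.4% to 23% in cytoplasmic RNA of the IGF2BP1 knockout. With DESeq2 it fell from 46.9% to 35.4% in total RNA of the IGF2BP3 knockout. The counts are therefore not read as a result about the members. The cause of these moves was not tested. CGAS, IFI16 and STING1 are limited by depth.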
